A study of Mus musculus with 6 samples.

Results

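Genes of cell division were examined in liver RNA of mice that lack the bile acid receptor FXR, with and without the transcription factor XBP1 in the liver. The set held 47 genes, listed by symbol for their roles in the cell cycle and matched to 47 of the 54232 Ensembl genes of the count files: 13 cyclins, kinases and transcription factors of G1, 14 genes of DNA replication, and 20 genes of G2 and mitosis. All mice were male C57BL/6, fed chow and aged 8 to 10 weeks, and all lacked FXR (Fxr-/-). The controls, labelled SKO, had an Xbp1 gene that carried floxed alleles (Xbp1fl/fl, 3 libraries). In the other group, labelled DKO, Xbp1 was also deleted in the liver (Xbp1LKO, 3 libraries). The comparison asks what loss of hepatic XBP1 adds to loss of FXR, since no group with intact FXR was analysed here. The sources used here do not name the Cre driver or the cell types in which it acts. Titles of 3 DKO libraries and 1 SKO library carry a pair of numbers whose meaning is not stated. Nothing in the labels ties each library to an animal of its own, so a p-value here speaks only of the spread among these libraries, which may be technical.

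A dividing cell passes from G1, when D-type cyclins with CDK4 and CDK6 and then cyclin E with CDK2 phosphorylate the retinoblastoma protein and free E2F factors, into S phase, when the MCM helicase opens replication origins, and then into G2 and mitosis, driven by cyclin A, cyclin B and CDK1. E2F sites drive many G1 and S phase genes. Genes of G2 and mitosis are known to be held silent in quiescent cells by the DREAM complex and switched on by B-MYB and FOXM1 through a promoter element called CHR, which usually lies near CCAAT boxes bound by NF-Y. Most hepatocytes of an adult liver are quiescent and many are polyploid, and RNA of dividing cells in whole liver can come from any of its cell types. In bulk RNA, more dividing cells and more RNA per dividing cell cannot be told apart.

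Total counts were 16966422 to 21107674 per library. Xbp1 stood at 225 to 260 CPM in SKO (CPM are a gene's reads relative to all reads of the library, scaled by edgeR's TMM factors) and 67.0 to 95.7 CPM in DKO, with no overlap (adjusted p of 0.000146 by edgeR), while Nr1h4, which encodes FXR, was counted at 92.8 to 105 CPM in every library. Without knowing the deleted exons, the latter value does not check the FXR genotype. DKO replicate 1 lay apart from the other DKO libraries in many of the values below, and the counts of mitotic genes and the value of Ccnd1 are also given without it. Of 13986 genes that passed the count filter, edgeR called 20.0% different between the groups at an adjusted p under 0.05, with 10.3% higher and 9.70% lower in DKO, and 20.2% had all 3 DKO libraries above all 3 SKO libraries. Over these genes the median of the log2 fold changes was 0.006.

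Genes of G2 and mitosis were higher in DKO, genes of the MCM helicase were higher in part, and G1 genes were not called. Without a count filter, all 20 G2 and mitosis genes were in the fit. There edgeR called 17 of them higher and 0 lower, and 1962 of all 26704 genes higher. Under the filter 19 of the 20 were tested and 16 were called higher, where 10.3% of all genes tested were. The 19 had log2 fold changes from 0.44 to 2.13 and a median of 1.42. The filter keeps genes at 0.526 CPM or more before TMM scaling, about 10 counts, in at least 3 libraries. Of the 19, 5 (Bub1, Plk1, Cdc20, Foxm1 and Cenpf) passed through their DKO libraries, so the counts after filtering favour a difference. Foxm1 had 10 counts in SKO replicate 2 and is over 0.526 there only after TMM scaling. Of the 14 that reached that level in all SKO libraries, 12 were called higher. For replication, 3 of 13 genes tested were higher and 0 lower, with a median of 0.19. For G1, 0 of 13 were called in either direction by edgeR, with 0 of 13 also in the fit without a filter, and the median was 0.05. At an unadjusted p under 0.05 edgeR gave 1 G1 gene higher (Ccnd1) and 2 lower (Cdk2 and E2f7), and DESeq2 and limma-voom each called Ccnd1 alone after adjustment. In CPM, 18 of the 20 mitotic genes, 4 of the 14 replication genes and 1 of the 13 G1 genes had every DKO library above every SKO library, against 20.2% of all genes tested.

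**Figure D1:**
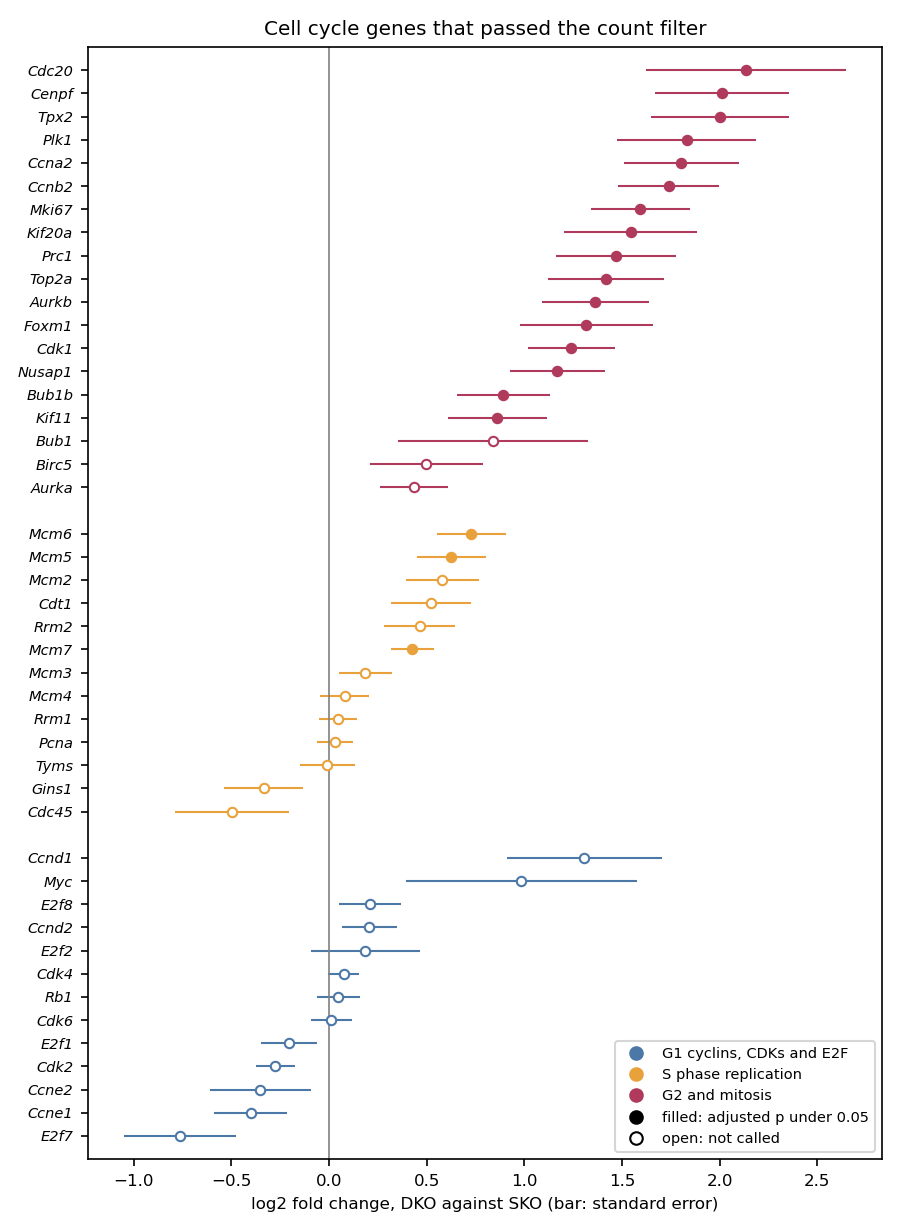
Log2 fold change of DKO against SKO for the 45 cell cycle genes that passed the count filter, with bars for the standard error, ordered within each phase. Filled points passed an edgeR adjusted p under 0.05: 16 of 19 G2 and mitosis genes, 3 of 13 replication genes and 0 of 13 G1 genes.

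The cyclins and kinase of mitotic entry were low in SKO and higher in DKO. Ccnb2 (ENSMUSG00000032218, chromosome 9, 70407692 to 70421547 in mm10), a B-type cyclin that activates CDK1, stood at 1.02, 0.987 and 1.126 CPM in SKO replicates 1 to 3 and at 4.45, 2.73 and 3.27 CPM in DKO replicates 1 to 3. The groups did not overlap, and the mean rose from 1.04 ± 0.0732 to 3.48 ± 0.878 CPM (SD, n = 3 per group), which is 1.74 ± 0.26 (SE) as a log2 fold change, with an adjusted p of 0.00185 by edgeR. Ccna2 (ENSMUSG00000027715, chromosome 3, 36564865 to 36572150), the cyclin of S phase and G2, was counted at 0.699, 1.21 and 1.126 CPM in SKO and 4.37, 2.54 and 3.78 CPM in DKO. Every DKO library was again above every SKO library, with a log2 difference of 1.80 ± 0.29 and an adjusted p of 0.00291 by edgeR. Cdk1 (ENSMUSG00000019942, chromosome 10, 69335146 to 69352938), the mitotic kinase itself, was 2.99, 2.19 and 2.03 CPM in SKO and 6.93, 4.69 and 5.29 CPM in DKO. This was 1.24 ± 0.22 as a log2 fold change, at an adjusted p of 0.00491 by edgeR, with no overlap. Ccnb1, the other main B cyclin, did not pass the filter, with 5, 3 and 1 counts in SKO and 21, 9 and 15 in DKO. In the fit without a filter Ccnb1 was called higher (edgeR log2 change 1.97, adjusted p of 0.00532). Exons of Ccna2 share 12.5% of their bases with Exosc9 on the opposite strand, and whether counting used the strand is not given.

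**Figure D2:**
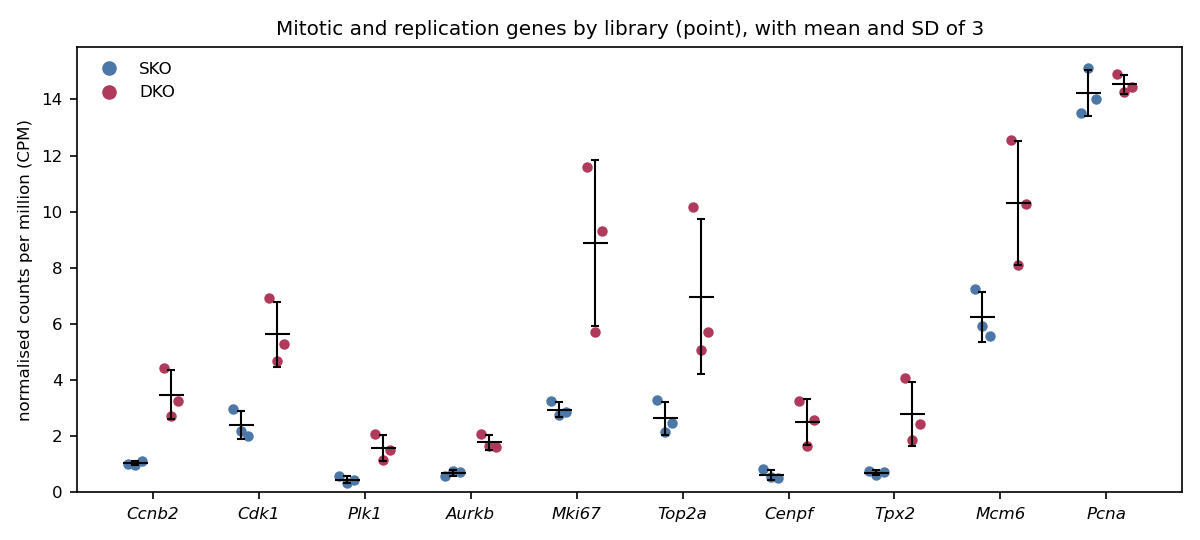
CPM in each library for 8 mitotic genes and 2 replication genes, with the mean and SD of 3 libraries. For the 8 mitotic genes and Mcm6 all DKO points lie above all SKO points, while Pcna lies between 13.5 and 15.1 CPM in both groups.

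The promoters of the mitotic genes often held the CHR core, as is known of genes of G2 and mitosis. The shares by list describe these classes of genes and do not draw on their RNA values. Promoter windows of 300 bases, 250 before to 50 after the start, were taken from RefSeq (GRCm38.p6) and matched 35 of the 47 genes by symbol, some with more than 1 start. The CHR core TTTGAA, searched on both strands, was in 12 of 16 promoters of G2 and mitosis genes (75.0%), in 2 of 13 of replication genes (15.4%), in 2 of 9 of G1 genes (22.2%) and in 17.9% of all 32851 promoters in the table. E2F cores on either strand (spelled TTCCCGC or else TTCGCGC or else TTGGCGC or else TTGCCGC) showed the other order, with 3 of 16 mitotic promoters (18.8%), 9 of 13 replication promoters (69.2%), 4 of 9 G1 promoters (44.4%) and 9.57% of all promoters. The 16, 13 and 9 promoters belong to 15, 12 and 8 genes. The box CCAAT, on either strand, was in 14, 10 and 5 of these promoters, against 37.4% of all. E2F cores on the 2 strands can overlap each other, and TTGGCGC read on the other strand overlaps CCAAT where a T follows. Among genes of G2 and mitosis with a window, 10 of the 11 called higher held TTTGAA. Of these 10, Plk1, Cdc20 and Cenpf passed the filter through their DKO libraries. Of the 4 not called or not tested, 1 held it (Aurka, but not Birc5, Bub1 or Ccnb1). Ccnb1 did not pass the filter and was called higher in the fit without one, so that fit adds a called gene with no TTTGAA. Mcm5, Mcm6 and Mcm7, the replication genes called higher under the filter, held an E2F core and no TTTGAA. Of the 9 other replication genes with a window, 5 held an E2F core (Cdc6, Cdt1, Mcm3, Rrm1 and Rrm2). Of the same 9, 2 held TTTGAA (Cdc45 and Mcm2). Of 8 G1 genes with a window, none of them called, 4 held an E2F core. These are descriptions of letters in windows, not of binding.

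The windows below run from 120 bases before to 18 bases after the start, 5′ to 3′ on the strand of the gene, and are shown so that the letters counted above can be seen in mitotic and in replication genes. In the first 6, capitals mark TTTGAA or its reverse complement TTCAAA, and CCAAT or its reverse complement ATTGG. Nusap1, which also rose, is included as the gene called higher with neither.
Cdk1 (chr10:69352895-69353032, minus strand): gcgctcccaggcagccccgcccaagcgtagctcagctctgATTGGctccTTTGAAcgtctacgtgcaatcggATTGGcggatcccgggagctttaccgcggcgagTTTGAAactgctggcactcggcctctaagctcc
Ccnb2 (chr9:70421537-70421674, minus strand): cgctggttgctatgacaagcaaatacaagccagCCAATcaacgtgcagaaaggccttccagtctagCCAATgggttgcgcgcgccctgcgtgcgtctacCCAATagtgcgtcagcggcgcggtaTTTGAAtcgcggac
Cdc20 (chr4:118437326-118437463, minus strand): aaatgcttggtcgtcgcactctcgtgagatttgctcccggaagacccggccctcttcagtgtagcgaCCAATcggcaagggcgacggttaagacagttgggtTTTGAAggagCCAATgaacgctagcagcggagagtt
Top2a (chr11:99024172-99024309, minus strand): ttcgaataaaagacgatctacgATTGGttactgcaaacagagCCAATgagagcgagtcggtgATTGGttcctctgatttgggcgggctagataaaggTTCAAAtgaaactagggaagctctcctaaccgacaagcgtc
Kif11 (chr19:37376262-37376399, plus strand): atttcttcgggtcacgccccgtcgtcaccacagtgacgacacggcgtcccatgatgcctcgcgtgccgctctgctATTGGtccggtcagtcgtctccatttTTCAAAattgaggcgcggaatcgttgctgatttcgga
Nusap1 (chr2:119618178-119618315, plus strand): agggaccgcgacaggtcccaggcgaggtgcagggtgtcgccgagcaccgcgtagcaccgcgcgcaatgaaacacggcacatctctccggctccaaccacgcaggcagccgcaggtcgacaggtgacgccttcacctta
In the last 2, capitals mark E2F cores on either strand. Mcm6 rose, and Rrm1 was not called.
Mcm6 (chr1:128359688-128359825, minus strand): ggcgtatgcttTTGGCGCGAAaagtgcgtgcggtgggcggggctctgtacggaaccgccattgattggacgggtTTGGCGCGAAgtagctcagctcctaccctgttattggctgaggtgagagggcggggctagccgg
Rrm1 (chr7:102441575-102441712, plus strand): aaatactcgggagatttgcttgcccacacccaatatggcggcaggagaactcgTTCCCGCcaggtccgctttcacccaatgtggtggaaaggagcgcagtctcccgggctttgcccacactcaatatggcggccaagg
Counting the match nearest to the start, TTTGAA began 15 bases before the start in Cdk1, 18 before in Cdc20 and at base 5 of the transcript in Ccnb2, and TTCAAA began 23 bases before it in Top2a and 19 before in Kif11.

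**Figure D3:**
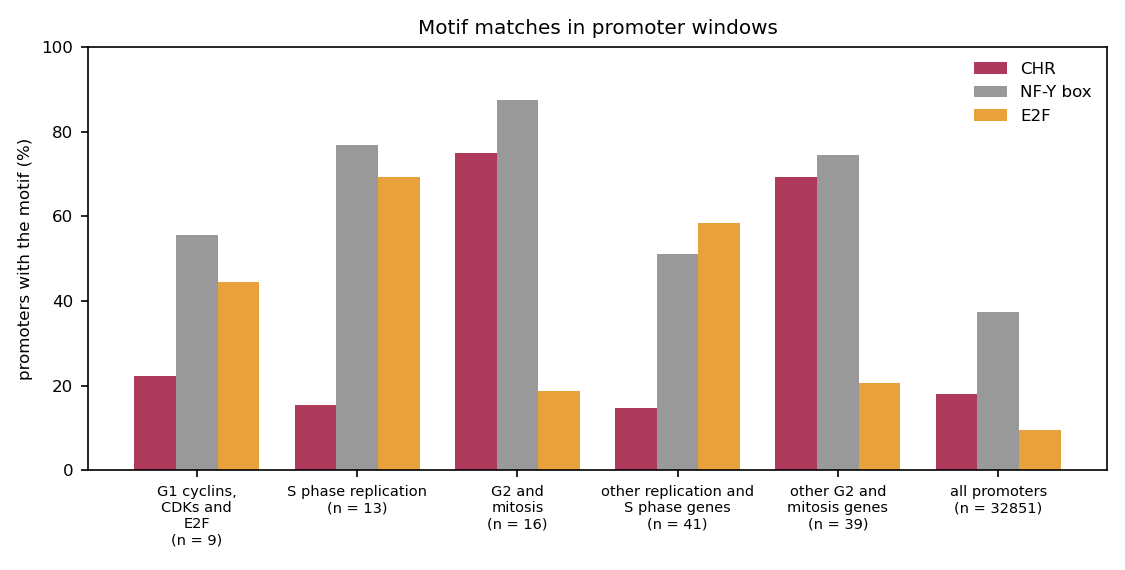
Share of promoter windows of 300 bases that hold a CHR core, a CCAAT box (labelled NF-Y box) or an E2F core, for the G1, replication and mitotic genes, for 2 further lists of cell cycle genes and for all promoters, with the number of promoters under each group. CHR cores stand at 75.0% in mitotic genes and 69.2% in the further mitotic genes against 17.9% of all promoters, and E2F cores at 69.2% in replication genes against 9.57%.

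Of the mitotic kinases Plk1 and Aurkb rose and Aurka was not called, and the factor Foxm1 rose. Plk1 (ENSMUSG00000030867, chromosome 7, 122159439 to 122169873), polo-like kinase 1, which acts from mitotic entry to cytokinesis, was 0.572, 0.329 and 0.450 CPM in SKO and 2.10, 1.17 and 1.503 CPM in DKO. It had only 6 to 9 counts in each SKO library, yet the groups did not overlap, with 1.83 ± 0.36 as the log2 fold change and an adjusted p of 0.00701 by edgeR. Aurkb, the kinase of the chromosomal passenger complex, rose from 0.690 ± 0.104 to 1.79 ± 0.270 CPM, with SKO libraries at 0.572 to 0.768 and DKO libraries at 1.61 to 2.10 (edgeR log2 change 1.36 ± 0.28, adjusted p of 0.00819). Birc5, which encodes survivin of the same complex, overlapped between groups, with 1.27, 2.36 and 2.36 CPM in SKO and 3.48, 2.93 and 2.07 CPM in DKO (no call; log2 change 0.50 ± 0.29, adjusted p of 0.252 by edgeR). Aurka, the centrosomal Aurora kinase, did not overlap (2.70 to 3.05 CPM in SKO, 3.71 to 4.20 CPM in DKO) but missed the threshold (edgeR log2 change 0.44 ± 0.17, adjusted p of 0.106). Foxm1, the transcription factor of G2 and mitosis genes, was 0.762, 0.548 and 1.01 CPM in SKO and 2.64, 1.51 and 1.61 CPM in DKO (edgeR log2 change 1.32 ± 0.34, adjusted p of 0.0232).

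Spindle and chromosome genes included the largest changes of the set. Cdc20, the activator of the anaphase-promoting complex, had the highest fold change, with 1.72, 0.329 and 0.619 CPM in SKO and 5.46, 2.83 and 3.06 CPM in DKO (edgeR log2 change 2.13 ± 0.51, adjusted p of 0.0240). The groups did not overlap, but the SKO libraries were uneven, with replicate 1 well above the others. Cenpf, a kinetochore protein, was 0.826, 0.548 and 0.507 CPM in SKO and 3.27, 1.66 and 2.59 CPM in DKO (edgeR log2 change 2.01 ± 0.34, adjusted p of 0.00378). Tpx2, a spindle assembly factor that activates Aurora A, was 0.762, 0.603 and 0.732 CPM in SKO and 4.07, 1.86 and 2.44 CPM in DKO (edgeR log2 change 2.002 ± 0.35, adjusted p of 0.00436). In both genes the groups did not overlap and DKO replicate 1 was highest. Prc1, Nusap1, Kif20a and Kif11, which bundle or move spindle microtubules, rose by 1.47 ± 0.31, 1.17 ± 0.24, 1.54 ± 0.34 and 0.86 ± 0.26 on the log2 scale, to DKO means of 2.70, 2.94, 3.86 and 3.76 CPM. Bub1b, of the spindle checkpoint, rose by 0.89 ± 0.24 (1.52 ± 0.305 to 2.80 ± 0.410 CPM, edgeR adjusted p = 0.0273), and its relative Bub1 overlapped between the groups with 3 to 22 counts per library and was not called (edgeR log2 change 0.84 ± 0.49, adjusted p of 0.255). Exons of Kif20a and Prc1 share 29.3% and 11.1% of their bases with Cdc23 and Rccd1 on the opposite strand.

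Mki67 (ENSMUSG00000031004, chromosome 7, 135689784 to 135716361), which encodes the proliferation marker Ki-67, was 3.24, 2.74 and 2.87 CPM in SKO and 11.6, 5.71 and 9.33 CPM in DKO. The lowest DKO library was thus above the highest SKO library, and edgeR gave 1.59 ± 0.25 on the log2 scale at an adjusted p of 0.00333. Top2a, topoisomerase II-alpha, which untangles sister chromatids, was 3.30, 2.14 and 2.48 CPM in SKO and 10.2, 5.08 and 5.70 CPM in DKO (edgeR log2 change 1.42 ± 0.30, adjusted p of 0.0118). Divided by exon length, mitotic mean levels in DKO ran from 0.159 CPM per kilobase in Bub1 to 2.28 CPM per kilobase in Ccnb2. In the same unit, replication genes ran from 0.0415 in Cdc6 to 6.06 in Pcna. The G1 genes ran from 0.146 in E2f7 to 15.03 in Cdk4, so the ranges of the phases overlapped. Reads were few, with 6 to 52 counts per SKO library in the 16 called mitotic genes.

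Calls for 10 of the 16 mitotic genes held in each of 6 fits that left out 1 library: Ccna2, Ccnb2, Cdk1, Mki67, Aurkb, Plk1, Cenpf, Nusap1, Prc1 and Tpx2, of which Plk1 and Cenpf passed the filter through their DKO libraries. Top2a and Kif20a lost their call without SKO replicate 2, Cdc20 without SKO replicates 2 or 3 or DKO replicate 1, Foxm1 without SKO replicates 1 or 2 or DKO replicate 1, Bub1b without SKO replicates 2 or 3 or DKO replicates 1 or 3, and Kif11 in all but the fit without DKO replicate 2 (adjusted p in edgeR up to 0.144). The fewest mitotic genes, 10, were called without SKO replicate 2, where 4.71% of all genes tested were higher. Without DKO replicate 1, 12 were called, where 981 of 14098 genes tested were higher. The median log2 fold change of the mitotic genes was then 1.10. Scaling by total counts moved the median of all genes to 0.23 and called 27.6% of them higher, with 17 mitotic, 6 replication and 2 G1 genes higher and 0 members lower. The median of the mitotic genes tested was then 1.65.

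Among replication genes, higher calls were in the MCM helicase. Mcm2 to Mcm7 encode the 6 subunits of the ring that is loaded on origins in G1 and unwinds DNA in S phase. Mcm6 (ENSMUSG00000026355, chromosome 1, 128331590 to 128359664) was 7.24, 5.92 and 5.57 CPM in SKO and 12.6, 8.10 and 10.3 CPM in DKO (edgeR log2 change 0.73 ± 0.18, adjusted p of 0.0188). Mcm5 was 3.49, 3.34 and 3.27 CPM in SKO and 5.83, 5.42 and 4.30 CPM in DKO (edgeR log2 change 0.63 ± 0.18, adjusted p of 0.0327). Mcm7 was 11.2, 10.03 and 9.74 CPM in SKO and 14.98, 13.96 and 12.6 CPM in DKO (edgeR log2 change 0.43 ± 0.11, adjusted p of 0.0243). In these 3 genes the groups did not overlap, and DKO replicate 1 was the highest library. Mcm2 did not overlap either (5.10 to 6.08 CPM in SKO, 6.74 to 10.8 CPM in DKO) but missed the threshold (edgeR log2 change 0.58 ± 0.19, adjusted p of 0.0529), and Mcm3 and Mcm4 were not called (log2 0.19 ± 0.14 and 0.08 ± 0.13). Mcm5 kept its call only in the fit without DKO replicate 3 among the 6 without 1 library, Mcm6 lost its call without SKO replicates 2 or 3 or DKO replicate 3, and Mcm7 without SKO replicates 2 or 3 or DKO replicate 1 (adjusted p in edgeR up to 0.101). Without a filter 6 replication genes were called higher: Mcm2, Mcm5, Mcm6, Mcm7, Rrm2 and Cdt1. In that fit 1962 of all 26704 genes were called higher.

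The other replication genes were not called under the filter. Pcna, the sliding clamp of DNA polymerases, was 13.5, 15.1 and 14.02 CPM in SKO and 14.9, 14.2 and 14.5 CPM in DKO, which is 0.03 ± 0.09 on the log2 scale (adjusted p of 0.843 by edgeR). Rrm1, the large subunit of ribonucleotide reductase, was 12.8 to 15.1 CPM in SKO and 14.2 to 14.3 CPM in DKO (log2 0.05 ± 0.10), and Tyms, thymidylate synthase, had a log2 fold change of -0.01 ± 0.14. Rrm2, the S phase subunit of the reductase, was 11.4, 14.7 and 9.18 CPM in SKO and 13.7, 19.2 and 15.9 CPM in DKO and overlapped (edgeR log2 change 0.46 ± 0.18, adjusted p of 0.108). Its highest library was DKO replicate 2, unlike the mitotic genes. The licensing factor Cdt1 was 5.01 to 8.44 CPM in SKO and 8.09 to 9.95 CPM in DKO (edgeR log2 change 0.52 ± 0.20, adjusted p of 0.0999). Partners of the MCM ring in the active helicase, Cdc45 and Gins1, had negative values (log2 -0.50 ± 0.29 and -0.33 ± 0.20) and were not called. Cdc6, which loads the MCM ring, had 1 to 4 counts per library in SKO and 3 to 6 in DKO and did not pass the filter.

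**Figure D4:**
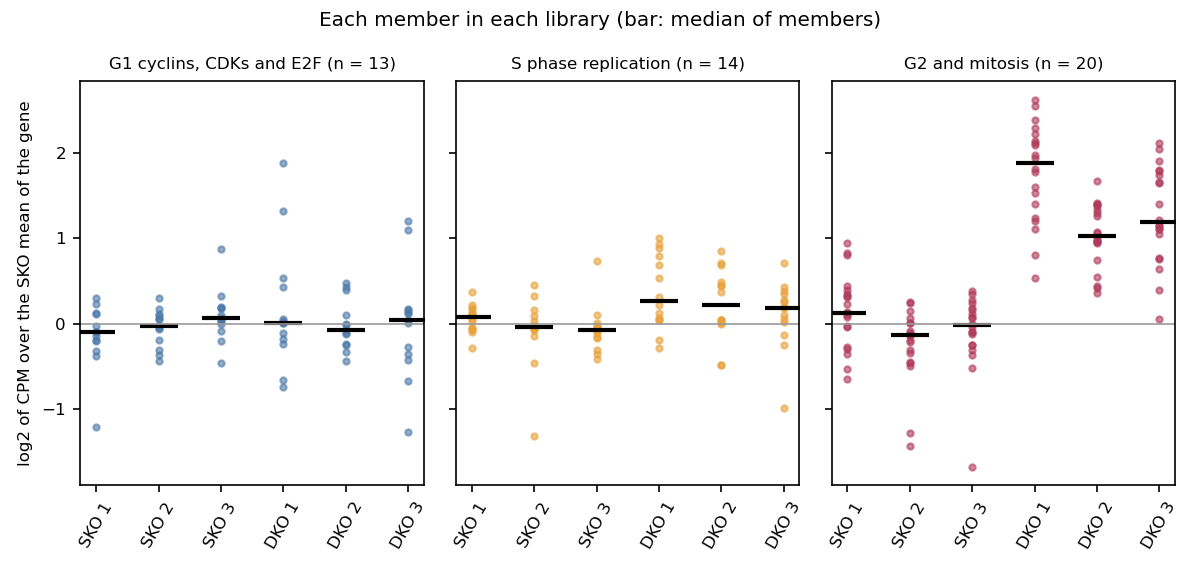
Each of the 47 genes in each library as log2 of its CPM over its own SKO mean, by phase, with a bar for the median of the genes. The mitotic medians correspond to 3.68, 2.04 and 2.28 times the SKO mean in DKO replicates 1 to 3, and the replication medians to 1.20, 1.17 and 1.14 times.

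In G1, cyclin D1 gave the largest fold change. Ccnd1 (ENSMUSG00000070348, chromosome 7, 144929931 to 144939925), the cyclin through which growth signals drive hepatocytes into the cycle, was 20.7, 16.9 and 15.3 CPM in SKO and 65.1, 24.5 and 40.8 CPM in DKO. The DKO libraries were all above the SKO libraries but lay far apart from each other, and edgeR did not call the gene (log2 change 1.31 ± 0.40, adjusted p = 0.0818). DESeq2, limma-voom and total-count scaling called it (adjusted p = 0.0121, 0.0373 and 0.0439), as did edgeR without DKO replicate 2 (adjusted p = 0.00600). Without DKO replicate 1, its highest library, the log2 change was 0.89, and neither that fit nor the other 4 without 1 library called it (adjusted p in edgeR up to 0.215). Exons of Ccnd1 share 23.4% of their bases with LTO1 on the opposite strand. Myc, a growth-driven transcription factor, was 4.51, 7.73 and 19.1 CPM in SKO and 26.2, 13.8 and 22.4 CPM in DKO, so SKO replicate 3 lay within the DKO range (edgeR log2 change 0.98 ± 0.59, adjusted p of 0.320). It was called higher only in the fit without SKO replicate 3 among those run (edgeR log2 change 1.75, adjusted p of 0.0378).

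The remaining G1 genes were not called, and some stood at lower values in DKO. Cdk4 and Cdk6, the partners of the D cyclins, had log2 fold changes of 0.07 ± 0.08 and 0.01 ± 0.10, with SKO means of 46.4 and 42.6 CPM. Cdk4 was called higher with total-count scaling (edgeR log2 change 0.29, adjusted p of 0.0220), under which the median of all genes was 0.23. Ccnd2 was 0.21 ± 0.14 and Rb1, the retinoblastoma gene, 0.05 ± 0.11. Cdk2, the partner of cyclins E and A, was 18.6 to 21.8 CPM in SKO and 15.3 to 18.1 CPM in DKO, with no overlap (edgeR log2 change -0.27 ± 0.10, adjusted p of 0.0819). The cyclin E genes Ccne1 and Ccne2 overlapped between groups (log2 -0.40 ± 0.19 and -0.35 ± 0.26). E2f7, a repressor of the E2F family, was 1.34, 1.66 and 0.933 CPM in DKO against 2.10, 1.81 and 2.81 CPM in SKO (edgeR log2 change -0.76 ± 0.29, adjusted p of 0.0871), and the activator E2f1 was also lower in each DKO library without being called (log2 -0.20 ± 0.15). With total-count scaling the log2 values of Cdk2, E2f7 and E2f1 were -0.05, -0.55 and 0.02. E2f2 and E2f8, an activator and a repressor, had values of 0.19 ± 0.28 and 0.21 ± 0.16. In CPM, 3 of the 13 G1 genes, Cdk2, E2f1 and E2f7, had every DKO library below every SKO library, a share near the 19.4% of all genes tested.

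Further genes of the same processes were taken from 3 lists that share no gene with the 47. Of 44 other genes of G2 and mitosis, the fit without a filter called 29 higher and 1 lower. In that fit 1962 of all 26704 genes were higher and 1647 lower. Under the filter, 39 of the 44 were tested, 20 higher and 1 lower, against 10.3% and 9.70% of all genes tested. Of the 39, 16 passed through their DKO libraries, and among the 23 others 7 were higher and 1 lower. Leaving out SKO replicate 2 or DKO replicate 1 lowered the higher count to 10, SKO replicate 3 to 12 and DKO replicate 3 to 11. Over all genes tested, higher calls fell from 1446 to 674, 981, 894 and 942 in the same order. Ckap2, a spindle-associated protein gene, was 0.445, 0.493 and 0.394 CPM in SKO and 2.85, 1.56 and 1.97 CPM in DKO (edgeR log2 change 2.25 ± 0.34, adjusted p of 0.00197). Hmmr, Dlgap5, Ckap2l, Iqgap3, Knl1, Racgap1 and Incenp rose by 2.54 ± 0.49, 2.16 ± 0.40, 1.92 ± 0.31, 1.79 ± 0.32, 1.66 ± 0.33, 1.37 ± 0.28 and 1.06 ± 0.21 on the log2 scale. Of these 8 genes, all but Racgap1 and Incenp passed the filter through their DKO libraries. The lower gene was Pttg1, named after its value was seen, which encodes the separase inhibitor securin and fell in mean level from 25.4 ± 5.31 CPM to 12.9 ± 3.90 CPM in DKO (edgeR log2 change -0.98 ± 0.24, adjusted p of 0.0336). Its call ended without each SKO library in turn and without DKO replicate 1 (adjusted p in edgeR up to 0.122).

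Of 40 other replication genes, 37 were tested, 2 higher and 5 lower, with a median of 0.14, against 10.3% of all genes tested higher and 9.70% lower. With total-count scaling 8 were higher and 2 lower, while 3859 of all 13986 genes tested (27.6%) were higher and 538 lower. The lower count was 2 without SKO replicate 2 and 3 without DKO replicate 1, where lower calls over all genes fell from 1357 to 745 and 991. The higher count was 1 in each fit without 1 library except that without DKO replicate 2, where it was 3. Over all genes, these fits called 674 to 1569 higher. Gins2, of the helicase partner complex GINS, had means of 0.586 ± 0.221 CPM in SKO and 1.83 ± 0.193 CPM in DKO (edgeR log2 change 1.64 ± 0.32, adjusted p of 0.00692), and 67.3% of its exon bases are shared with Gse1 on the opposite strand. Gins2 passed the filter through its DKO libraries. Lig1, the ligase that joins Okazaki fragments, rose by 0.64 ± 0.19 but kept its call in 1 of the 6 fits without 1 library (adjusted p in edgeR up to 0.108). The lower genes included Mcm10, Tk1, Orc5 and Gmnn. Tk1, thymidine kinase, was 36.5, 31.9 and 36.5 CPM in SKO and 21.5, 24.8 and 26.0 CPM in DKO, with no overlap (edgeR log2 change -0.54 ± 0.10, adjusted p of 0.00503). Mcm10, a replication initiation factor, had a mean of 104.5 ± 11.8 CPM in SKO and a lower one of 58.1 ± 8.54 CPM in DKO (edgeR log2 change -0.85 ± 0.12, adjusted p of 0.00196). Orc5, of the origin recognition complex, and Gmnn, the CDT1 inhibitor geminin, fell by 0.44 ± 0.11 and 0.43 ± 0.12 on the log2 scale, and neither was called with total-count scaling (log2 -0.22 and -0.21). Orc5 lost its call without SKO replicate 2, and Gmnn in all but the fit without SKO replicate 1 (adjusted p in edgeR up to 0.140).

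A list of 22 CDK inhibitors, pocket proteins and E2F or MuvB partners, which holds activators as well as brakes, had no larger a share of calls than all genes tested. Of 20 tested, 2 were higher (Cdkn1a and Mybl2) and 1 lower (Rbl2), against 10.3% and 9.70% of all genes tested, and the median was 0.06. With total-count scaling 6 were higher and 1 lower, where 27.6% of all genes tested were higher. Leaving out DKO replicates 1 or 3 or SKO replicate 2 gave 0 higher, and leaving out any other library gave 1. Over all genes, the fits without 1 library called 674 to 1569 higher. Cdkn1a, the CDK inhibitor p21, was 10.2, 1.48 and 2.76 CPM in SKO and 44.1, 37.9 and 31.4 CPM in DKO. All DKO libraries were above all SKO libraries (edgeR log2 change 3.01 ± 0.67, adjusted p of 0.0432), but SKO replicate 1 stood far above the other SKO libraries. The call held without SKO replicate 1 and ended in the other 5 fits without 1 library and in the fit without a filter (adjusted p in edgeR up to 0.133). Rbl2, the pocket protein p130 of the DREAM complex in quiescent cells, was 54.2, 66.1 and 63.4 CPM in SKO and 34.0, 40.4 and 40.1 CPM in DKO (edgeR log2 change -0.68 ± 0.10, adjusted p of 0.00141), and it was called in all 6 of those fits. Mybl2, which encodes B-MYB, had 2 to 5 counts per library in SKO and 11 to 18 in DKO, through which it passed the filter (edgeR log2 change 1.77 ± 0.44, adjusted p of 0.0194), and it was not called by DESeq2 (adjusted p = 0.0646) or in 4 of the 6 fits without 1 library.

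Markers of several liver cell types moved with the mitotic genes. The calls below stand against 10.3% of all genes tested higher and 9.70% lower. Of 8 stellate cell and fibroblast markers 5 were called higher, and the summed level of the list was 340 to 403 CPM in SKO and 574 to 838 CPM in DKO. Of the 5, Dcn kept its call in all 6 fits without 1 library and the others in 2 to 4. For cholangiocytes, 3 of 5 markers tested were higher (60.8 to 73.3 CPM in SKO, 121 to 199 CPM in DKO). Most of that summed level was Spp1 alone, whose mean was 55.6 CPM for SKO libraries against 134 CPM for DKO libraries. Spp1 kept its call in all 6 fits without 1 library, and the 2 other called markers in 3 or 4. The 2 tested markers that were not called, Sox9 among them, overlapped between the groups. Macrophage and Kupffer cell markers were higher in 3 of 8 by edgeR, 3 of 8 by limma-voom and 8 of 8 by DESeq2 (445 to 554 and 575 to 883 CPM). The 3 edgeR calls held in 3 to 6 of the fits without 1 library. Monocyte and neutrophil markers were higher in 2 of 5 tested (4.38 to 6.20 and 6.59 to 13.4 CPM), with Ly6g at 0 in all DKO libraries and in SKO replicates 2 and 3. Each of these calls held in only 1 or 2 of the fits without 1 library. Of B and plasma cell markers 1 of 5 tested was higher (6.14 to 7.56 and 6.69 to 11.2 CPM), a call that held in 1 of those fits. Of T and NK cell markers 0 of 6 were called (2.85 to 4.70 and 4.93 to 7.18 CPM). No endothelial (0 of 6) or erythroid (0 of 5) marker was called by edgeR, DESeq2 or limma-voom, and at an unadjusted p under 0.05 edgeR gave 1 T and NK cell marker higher, 1 endothelial marker lower and 0 erythroid markers. The endothelial sums were 346 to 376 CPM in SKO and 321 to 354 CPM in DKO, and the erythroid sums 305 to 478 and 352 to 433 CPM. Of 8 hepatocyte markers 4 were lower, among them Alb, Ttr and Apoa1, and the 4 others were not called, 3 of them with log2 changes above 0 (up to 0.59). The 4 lower markers kept their calls in 2 to 5 of the fits without 1 library. The summed level, 81010 to 107200 CPM in SKO and 52310 to 65720 CPM in DKO, was mostly Alb, with means of 66420 and 35750 CPM. As the median over genes of CPM over the SKO mean, DKO replicates 1 to 3 stood at 3.68, 2.04 and 2.28 for the mitotic genes, 2.29, 1.42 and 1.58 for stellate cell markers, 3.15, 1.88 and 1.60 for cholangiocyte markers and 1.82, 1.20 and 1.52 for macrophage markers. Monocyte and neutrophil markers stood at 2.27, 1.04 and 1.21, and T and NK cell markers at 1.89, 1.10 and 1.21. For B and plasma cell markers the values were 1.43, 1.06 and 0.812, and for erythroid markers 1.39, 1.07 and 0.970. Endothelial markers stood at 0.937, 0.959 and 0.995, and hepatocyte markers at 0.698, 0.874 and 0.861. DKO replicate 1 was the highest library for all 20 mitotic genes and for 8 of 8 stellate cell, 5 of 6 cholangiocyte and 7 of 8 macrophage markers. It was also highest for 4 of 6 monocyte and neutrophil, 4 of 7 T and NK cell and 4 of 6 B and plasma cell markers. The same held for 4 of 6 erythroid, 1 of 6 endothelial and 0 of 8 hepatocyte markers. The share of all genes highest in this library was not computed. The part of any cell type in the mitotic values was not tested.

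**Figure D5:**
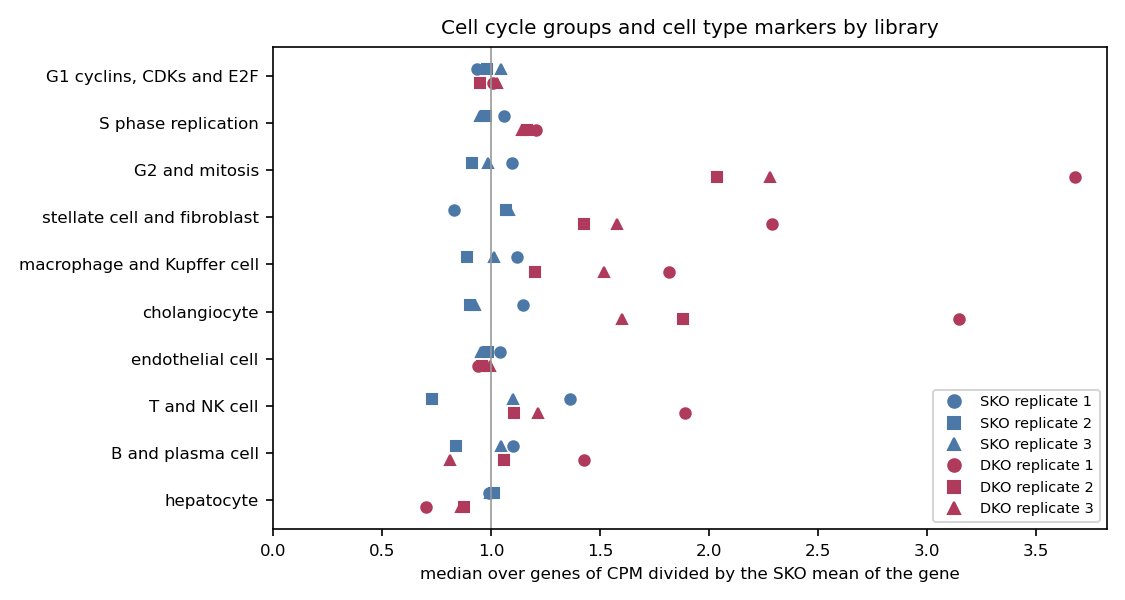
Median over the genes of each group of CPM divided by the SKO mean of the gene, for the cell cycle groups and for cell type marker lists, with 1 symbol per library. Monocyte and neutrophil markers and erythroid markers are not drawn. DKO replicate 1 stands at 3.68 for mitotic genes, 3.15 for cholangiocyte and 2.29 for stellate cell markers, while endothelial markers lie between 0.937 and 1.04 in all libraries.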

How the data were processed

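RNA of liver was extracted with Trizol and sequenced with standard Illumina methods, per the labels. The authors deposited raw read counts for 54232 Ensembl genes, with a file for each library. According to the submitters' processing notes, mm10 was the build and the tools were DESeq2, HTSeq 0.6.1p1, STAR and cutadapt 1.13. The annotation and strand setting: not given in the sources used here. No row lacked a gene.

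Symbols, coordinates and exon lengths came from GENCODE M21 (GRCm38, the assembly of mm10), which matched 54079 identifiers and not 153. After filterByExpr (13986 genes), counts went into edgeR 4.0.16 under R 4.3.3, using robust glmQLFit and glmQLFTest with TMM factors, on 4 residual degrees of freedom, with Benjamini-Hochberg adjustment over all genes tested. The standard error is the log2 fold change over the square root of F. CPM are counts over total counts times the TMM factor. A count of 0 allows up to 3 counts, which is 0.126 to 0.191 CPM by library, for counting error only. Only the edgeR fit was tested on simulated data, drawn with the same dispersion for every gene. Those data held no library that lay apart from its group. Over genes with at least 10 counts in a pair, chi-square per degree of freedom was 10.2 to 29.45 between libraries of a group, so no pair looked like 1 library deposited again.

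The members and lists were chosen with earlier results of these data known. All members could be named, from each further cell cycle list up to 8 called genes with the smallest p, and from each marker list the 3 of highest mean CPM. Pttg1 and Ly6g were added after their values were seen. Some genes of these lists enter the counts and sums but are not reported here by name. Alternatives were RLE, upper-quartile and total-count scaling, DESeq2 1.42.0, limma-voom (limma 3.58.1), no filter, and leaving out each library.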

Additional observations from a re-analysis of the deposited data

How the results depend on the processing

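No paired analysis was possible because the labels tie no SKO library to a DKO library (replicates are numbered in order of accession). RLE and upper-quartile factors left all member and list counts within 1.5 times. With total counts, 3859 genes were higher and 538 lower, and the higher counts were 2 for G1, 6 for replication, 6 for CDK inhibitors and partners and 8 for other replication genes, which had 2 lower. Higher counts were 1 for G1 with DESeq2 and with limma-voom, 6 for replication without a filter, 1 for CDK inhibitors and partners with DESeq2 and 1 for other replication genes with limma-voom. Over all genes the higher counts were 1394 with DESeq2, 1284 with limma-voom and 1962 of 26704 without a filter. Leaving out each library in turn gave 674 to 1569 genes higher and 745 to 1200 lower, 12 to 20 members higher and 0 to 0 lower, with 0 to 1 in G1, 0 to 3 in replication and 10 to 17 in mitosis. Other mitotic genes numbered 10 to 24 higher and 0 to 1 lower, other replication genes 1 to 3 higher and 2 to 4 lower, and CDK inhibitors and partners 0 to 1 higher and 1 to 1 lower. Of the mitotic genes, none changed sign in any fit.

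Kif11 and Lig1 lost their call with limma-voom (adjusted p = 0.0592 and 0.0514), and Gmnn with upper-quartile factors in edgeR (adjusted p = 0.0575). Genes that changed sign were all uncalled. E2f1 went to 0.0174 with total counts, and Tyms to 0.0537, 0.2133 and 0.0036 with upper-quartile factors, total counts and limma-voom. Without 1 library, Cdk6 ranged from -0.0748 to 0.1176, E2f2 from -0.0445 to 0.3558, Rb1 from -0.0454 to 0.1038, Pcna from -0.0048 to 0.0713, Rrm1 from -0.0074 to 0.1111 and Tyms from -0.0806 to 0.0913. Low counts limit the precision, with as few as 1 count per SKO library for a mitotic and for a replication gene.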

Other observations

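Mcm10 stood apart from the helicase subunits in level as well as in direction. Per exon length its mean was 13.6 CPM per kilobase in SKO and 7.56 in DKO, where Mcm2 to Mcm7 lay between 0.813 and 2.33 CPM per kilobase in SKO and between 1.21 and 3.13 in DKO. Its SKO libraries were 93.7, 103 and 117 CPM and its DKO libraries 48.4, 64.2 and 61.8 CPM, so the highest DKO library was below the lowest SKO library. Whole-gene counts do not show which exons the reads came from.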
